A study of Mus musculus with 4 samples.

Results

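The genes described here are those of GDNF-RET signalling and of the ureteric bud: Gdnf, Ret, Gfra1, Gfra2, Npnt, Gata3, Emx2, Tfap2b and Calb1. They were taken by name, and every probe set annotated to 1 of them alone was read. This gave 24 of the 45037 probe sets on the array and 9 of its 18193 annotated genes. RNA was measured on 4 Affymetrix mouse genome arrays, 2 of KSP-positive cells and 2 of KSP-negative cells. Both fractions came from mouse embryonic stem (ES) cells of the EB3 line, strain 129/Ola, which carried GFP driven by the CAG promoter, a promoter active in most cell types. The cells were differentiated for 18 days with Activin at 10 ng/mL, first as embryoid bodies and then attached to gelatin, and both fractions had this same treatment. Live GFP-positive cells were sorted with an antibody against KSP (kidney-specific cadherin, the product of Cdh16), and the comparison asked which transcripts set the KSP-positive cells apart. All cells descended from a single ES line, so the spread between arrays is that of 2 differentiation and sorting experiments of that line. The limma p-values rest on this spread together with a variance shared across genes.

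The ureteric bud is the outgrowth of the Wolffian duct that branches into the collecting duct system of the kidney. GDNF, secreted by the metanephric mesenchyme, binds the co-receptor GFRA1, and the pair activates the receptor tyrosine kinase RET on bud cells, which drives budding and branching. RET signalling then switches on bud tip genes such as Wnt11, Etv4 and Etv5, while nephronectin, made by bud epithelium, acts on an integrin of the mesenchyme to sustain Gdnf. The same ligand and receptors also act outside the kidney, in the enteric nervous system, in neurons and in spermatogonia.

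Levels are given as log2 of the signal once the 4 arrays had been brought to the same 75th percentile. Signals under a floor of 3.62 on that scale were raised to it, so values at the floor have no order, and probe sets whose mean over the 4 arrays did not exceed 5.14 were left out of the tests. The 2 arrays of a fraction correlated at 0.945 (Pearson's r over genes) within either fraction, and arrays of different fractions at 0.856 to 0.921. The sorted gene itself did not separate the fractions: Cdh16 read 5.66 and 5.03 in KSP-positive cells, against 5.30 and 4.71 in KSP-negative cells (difference 0.34, limma, adjusted p = 0.816). The names of the fractions below are thus those of the antibody sort.

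**Figure D1:**
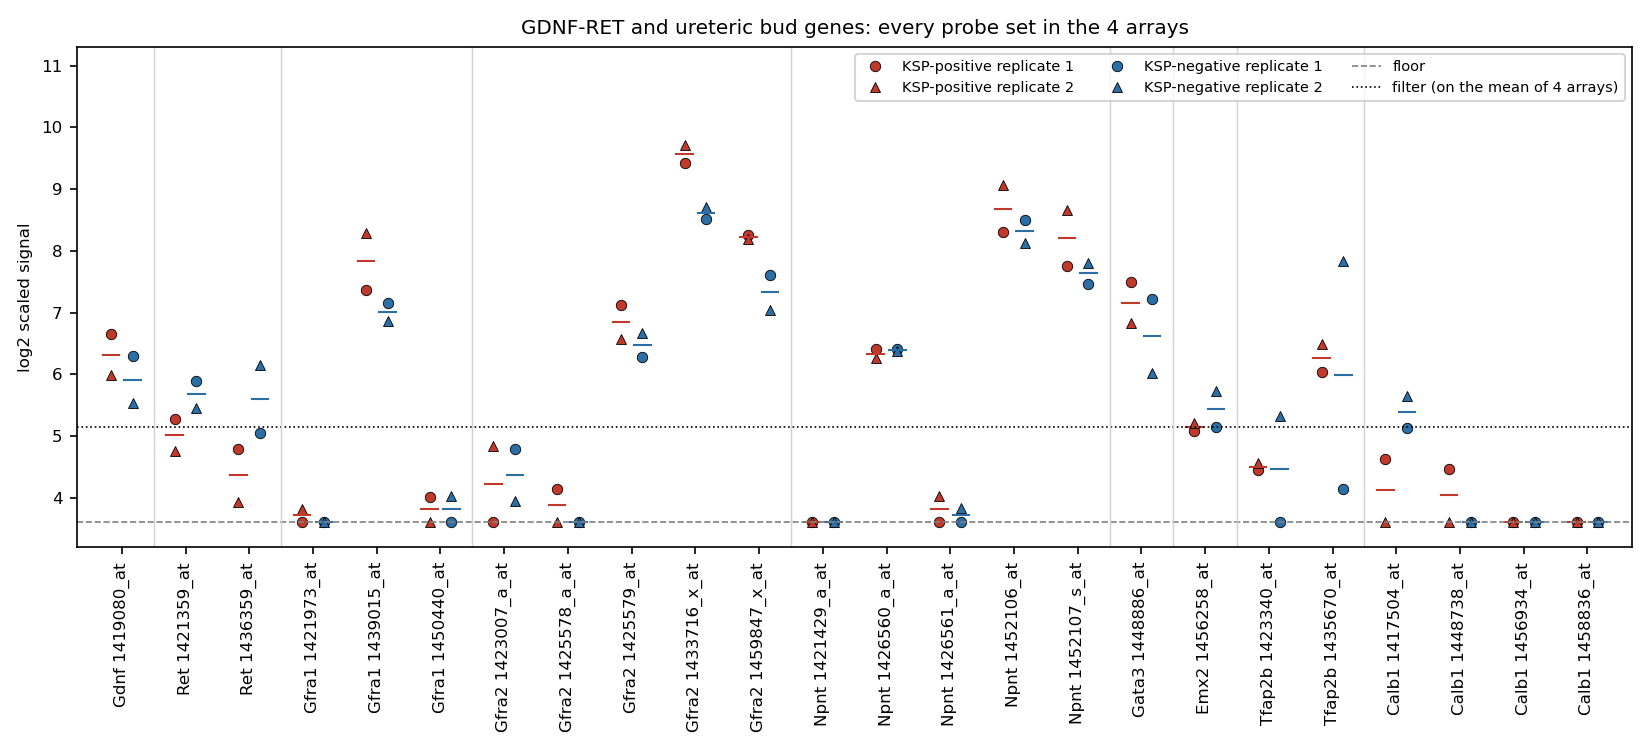
Log2 scaled signal (vertical axis) of all 24 probe sets, named by gene and probe set along the horizontal axis, with 1 point for each of the 2 KSP-positive and 2 KSP-negative arrays, short bars at the means, and the floor of 3.62 and the filter of 5.14 drawn as lines. The fractions are apart for Gfra1 (1439015_at) and Gfra2 (1433716_x_at and 1459847_x_at), higher in KSP-positive cells, and for both Ret probe sets and Calb1 (1417504_at), lower in KSP-positive cells, while the KSP-negative points of Tfap2b (1435670_at) lie at 4.14 and 7.84.

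None of the ligand and receptor genes passed the test between the fractions, and the largest difference was that of Gfra2. Gdnf, the ligand, read 6.65 and 5.99 in KSP-positive cells, against 6.30 and 5.53 in KSP-negative cells. The fractions overlapped, and replicate 1 was the higher array in each of them. The difference was 0.41 on the log2 scale (SE 0.50, 95% confidence interval -0.70 to 1.51), or 1.33-fold, with an adjusted p of 0.735 by limma. These are bulk samples, in which fewer cells of a type and less RNA per cell cannot be told apart.

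Ret, which encodes the signalling receptor, read 5.28 and 4.76 in KSP-positive cells, against 5.89 and 5.46 in KSP-negative cells. Both KSP-positive arrays were below both KSP-negative arrays, but the gap between the nearest arrays was smaller than the gap within either fraction. The difference was -0.66 (SE 0.54, interval -1.85 to 0.54), 1.57-fold lower, with an adjusted p of 0.582. A further Ret probe set (1436359_at) was under the filter, with 4.80 and 3.93 in KSP-positive cells, against 5.05 and 6.15 in KSP-negative cells. It also kept the fractions apart with the KSP-positive cells lower, by 1.23 in the fit without a filter (adjusted p = 0.687). Both Ret probe sets were thus dim, and neither showed a change beyond the spread between arrays.

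Gfra1 encodes the co-receptor that binds GDNF with highest affinity. Its only probe set over the filter (1439015_at) read 7.37 and 8.29 in KSP-positive cells, against 7.15 and 6.86 in KSP-negative cells. The fractions did not overlap, although the lower KSP-positive array was close to the higher KSP-negative array. The difference of 0.82 (SE 0.43, interval -0.12 to 1.77), 1.77-fold, had an unadjusted p of 0.0812 and an adjusted p of 0.349 by limma. The other 2 Gfra1 probe sets lay near the floor, with 3 and 2 of their 4 arrays on it, and gave no measure of a difference.

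Gfra2 encodes the co-receptor that prefers neurturin, a relative of GDNF. Its brightest probe set (1433716_x_at) read 9.42 and 9.72 in KSP-positive cells, against 8.51 and 8.71 in KSP-negative cells. The arrays of each fraction were close together and the fractions were well apart. The difference was 0.96 (SE 0.35, interval 0.19 to 1.73), 1.94-fold, and its unadjusted p of 0.0187 by limma became 0.172 after adjustment over all genes. A second probe set of the same kind (1459847_x_at) read 8.25 and 8.19 in KSP-positive cells, against 7.61 and 7.04 in KSP-negative cells, a difference of 0.90 (adjusted p = 0.383 over all probe sets, limma). The suffix of both marks probes that can also match other transcripts, so their signal is not certain to be that of Gfra2 alone. The remaining Gfra2 probe set over the filter (1425579_at), which has no such mark, read 7.13 and 6.57 in KSP-positive cells, against 6.28 and 6.67 in KSP-negative cells. There the fractions overlapped, and the difference was 0.37 (adjusted p = 0.787). The last 2 Gfra2 probe sets were under the filter and between 3.62 and 4.84 on every array.

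**Figure D2:**
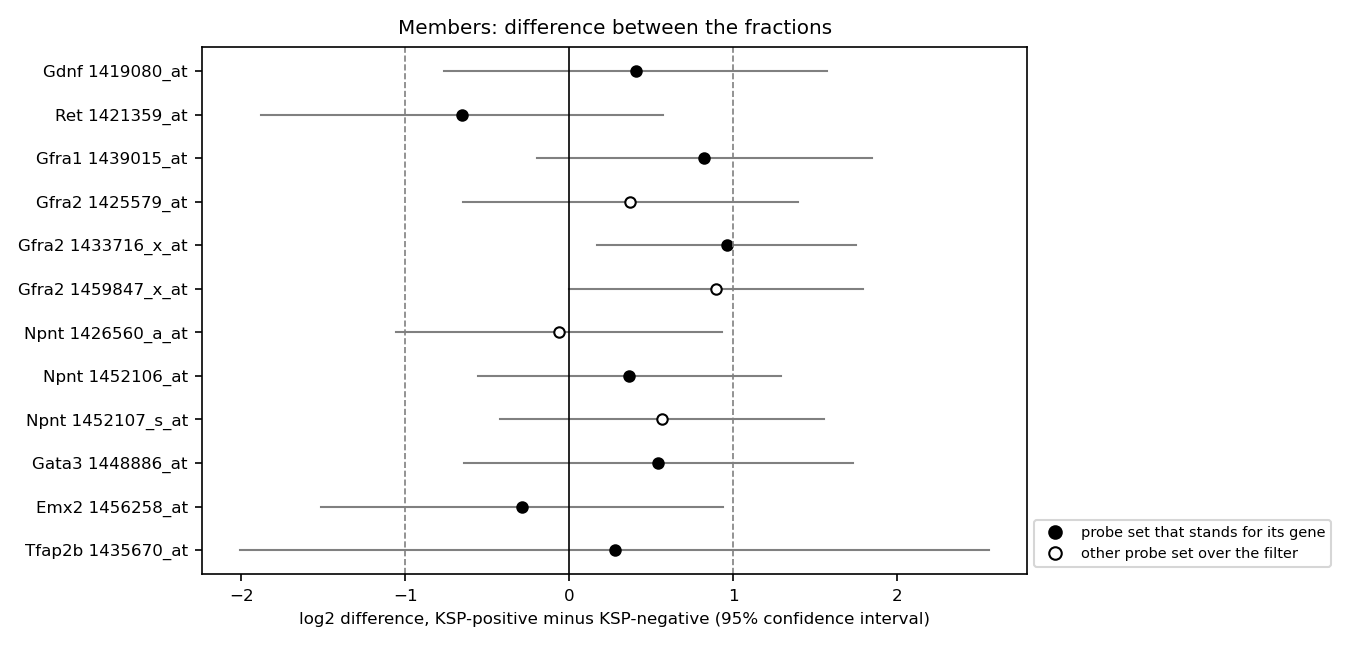
Log2 difference, KSP-positive minus KSP-negative, of the 12 tested probe sets (points) with 95% confidence intervals (bars) from the fit over all probe sets; filled points are the probe sets that stand for their genes and dashed lines mark 2-fold. Every point lies within 2-fold, from -0.66 for Ret to 0.96 for Gfra2, and the Tfap2b interval is the widest.

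Npnt encodes nephronectin, an extracellular matrix protein of the bud basement membrane and the ligand of integrin alpha8 beta1. Its brightest probe set (1452106_at) read 8.30 and 9.06 in KSP-positive cells, against 8.50 and 8.13 in KSP-negative cells. The fractions overlapped, and the difference of 0.37 (SE 0.39, interval -0.50 to 1.23), 1.29-fold, had an adjusted p of 0.688 by limma. A second probe set (1452107_s_at, a suffix for probes shared between transcripts) read 7.75 and 8.66 in KSP-positive cells, against 7.46 and 7.81 in KSP-negative cells (difference 0.57, adjusted p = 0.640). In both, KSP-positive replicate 2 was the highest array. The third probe set over the filter (1426560_a_at) read 6.40 and 6.27 in KSP-positive cells, against 6.41 and 6.39 in KSP-negative cells, a difference of -0.06 (adjusted p = 0.976). The higher KSP-positive mean of the 2 brighter probe sets was thus not seen in 1426560_a_at. Of the 2 others, 1 was at the floor on all 4 arrays and 1 on 2 of them.

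The 3 transcription factor genes overlapped between the fractions. Gata3, which acts in the Wolffian duct upstream of Ret in mice, read 7.49 and 6.83 in KSP-positive cells, against 7.22 and 6.02 in KSP-negative cells. The difference was 0.54 (SE 0.50, interval -0.55 to 1.64), 1.46-fold, with an adjusted p of 0.626 by limma. As for Gdnf, the lowest array was KSP-negative replicate 2. Emx2, a homeobox gene that the mouse ureteric bud needs in order to invade and branch, read 5.08 and 5.21 in KSP-positive cells, against 5.14 and 5.73 in KSP-negative cells. Its difference was -0.29 (SE 0.54, interval -1.49 to 0.91), 1.22-fold lower, with an adjusted p of 0.838. All 4 Emx2 arrays were close to the filter of 5.14, so the gene was only just in the test.

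Tfap2b encodes an AP-2 family factor of the distal nephron, which is also made in neural crest derivatives. It had the widest spread of all 8 tested members, and the spread lay in the KSP-negative cells. It read 6.04 and 6.49 in KSP-positive cells, against 4.14 and 7.84 in KSP-negative cells (SD 0.32 and 2.62, n = 2 each). Both KSP-positive arrays lay between the KSP-negative arrays, and the difference of 0.28 (SE 0.92, interval -1.76 to 2.31) had an adjusted p of 0.917 by limma. A dimmer Tfap2b probe set (1423340_at, under the filter) had the same order, with 4.45 and 4.56 in KSP-positive cells, against the floor and 5.33 in KSP-negative cells. The related genes Tfap2a and Tfap2c were also highest in KSP-negative replicate 2: Tfap2a read 7.09 and 6.77 in KSP-positive cells, against 6.71 and 8.20 in KSP-negative cells. That array also had the highest summed signal of pluripotency, epithelial, trophoblast, germ cell and neuronal marker genes. KSP-negative replicate 1, the lowest array for Tfap2b, had the next highest sum in each of those lists. Neural crest markers had sums of 4372 and 4202 in KSP-positive cells, against 2797 and 2667 in KSP-negative cells, lowest on KSP-negative replicate 2. The trophoblast list includes Tfap2c itself. The actin 3'/5' signal ratio of KSP-negative replicate 2, a sign of RNA quality, was also the highest, with ratios of 2.92 and 1.80 on the KSP-positive arrays, against 1.79 and 3.55 on the KSP-negative arrays. The part of these cells and of RNA quality in the Tfap2b value, and in the other values that rested on this array, was not tested.

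Calb1, which encodes the calcium-binding protein calbindin-D28k of the distal tubule, connecting tubule and bud epithelium, was not tested, since none of its 4 probe sets passed the filter. The highest (1417504_at) read 4.64 and the floor in KSP-positive cells, against 5.14 and 5.65 in KSP-negative cells. The KSP-positive arrays were below the KSP-negative arrays, and the fit without a filter gave a difference of -1.27 with an unadjusted p of 0.0869 and an adjusted p of 0.604 by limma. With 1 KSP-positive array at the floor, this fitted difference depends on where the floor was set. Another Calb1 probe set was above the floor on KSP-positive replicate 1 alone, at 4.46, and the last 2 were at the floor on all 4 arrays. The calcium-binding genes Calb2 and S100g were looked at after their values were seen. Calb2 was at the floor on both KSP-positive arrays and on KSP-negative replicate 1, and read 5.68 on KSP-negative replicate 2. S100g, which encodes calbindin-D9k, was at the floor in both KSP-positive arrays, against 6.46 and 6.59 in KSP-negative cells, with a mean over the 4 arrays under the filter.

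Counted together, 0 of the 8 tested members passed an adjusted p of 0.05 by limma, against 3.49% of all 12849 genes tested (1.84% higher and 1.65% lower), and 1 of them (Gfra2) had an unadjusted p under 0.05, against 17.8% of all genes. None differed by more than 2-fold, a size that 15.6% of all genes passed. The fractions did not overlap in 3 of the 8 (Gfra1 and Gfra2 higher in KSP-positive cells, Ret lower), against 48.9% of all genes (24.4% higher and 24.6% lower). The median difference of the 8 was 0.39, beside -0.03 over all genes, with 6 differences above 0 and 2 below, where 48.4% of all genes were above 0. Over the 12 tested probe sets, 0 passed, against 0.603% of 27022 probe sets, 1 had an unadjusted p under 0.05, against 13.1%, and 4 did not overlap, against 44.1%. The intervals were wide: a 2-fold rise lay within the interval of 6 of the 8 genes and a 2-fold fall within that of 3. Both lay within the interval of Tfap2b. An exact permutation of 2 against 2 arrays cannot give a two-sided p below 0.333.

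In 6 of the 8 tested members the replicates differed the same way in both fractions. The share of all genes that did so was not counted, so this count has no background beside it. Over all 12849 genes tested, the deviations of same-numbered arrays from their fraction means had a correlation of 0.166. Gdnf was 0.65 higher in replicate 1 than in replicate 2 of the KSP-positive cells and 0.77 higher in the KSP-negative cells. Gata3 was 0.65 and 1.20 higher in replicate 1, and Ret 0.51 and 0.43 higher, in the KSP-positive and the KSP-negative cells. Gfra2, Emx2 and Tfap2b were lower in replicate 1 of both fractions. For Gdnf, Gata3, Emx2 and Tfap2b the difference between replicates, averaged over the fractions, was larger than the difference between fractions. No source ties a replicate number to an experiment, so these are the values of numbered arrays and not of a known batch.

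**Figure D3:**
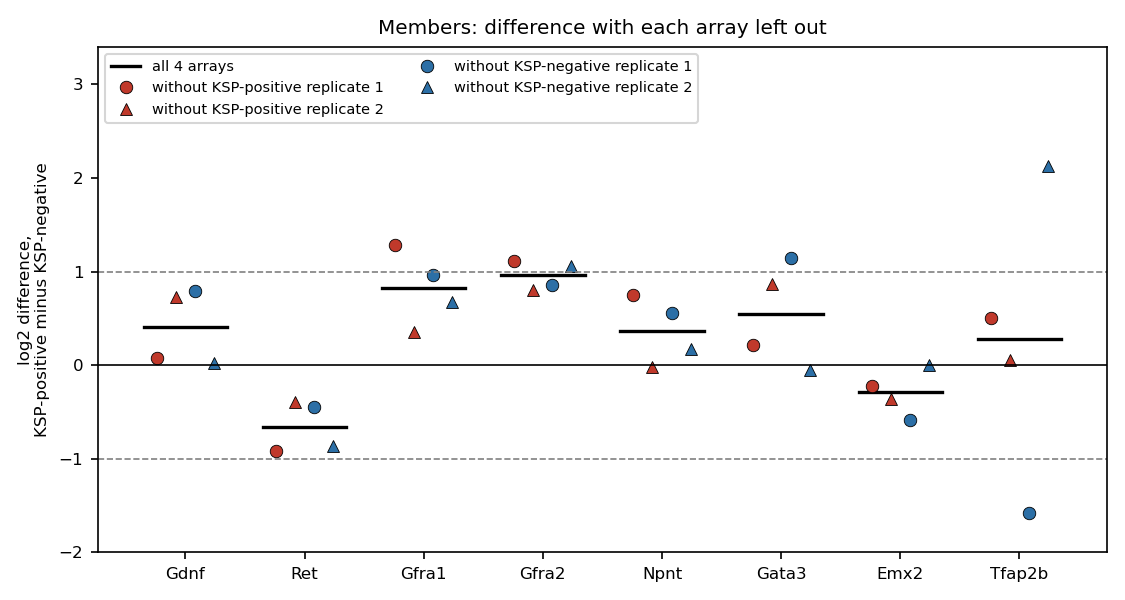
Log2 difference, KSP-positive minus KSP-negative (vertical axis), of each tested member with all 4 arrays and with each array left out in turn. Gfra2 stays between 0.81 and 1.11 and Ret between -0.91 and -0.40, while Tfap2b runs from -1.58 to 2.13.

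Leaving out 1 array at a time showed which directions rested on it. Gfra2 kept a difference of 0.81 to 1.11, Gfra1 of 0.36 to 1.29, Ret of -0.91 to -0.40 and Gdnf of 0.02 to 0.79, each on its own side of 0. Npnt was at -0.01 without KSP-positive replicate 2, Gata3 at -0.06 without KSP-negative replicate 2, and Emx2 at 0.01 without KSP-negative replicate 2. Tfap2b was at -1.58 without KSP-negative replicate 1 and at 2.13 without KSP-negative replicate 2. None of the 8 passed the adjusted threshold by limma in any of the 4 fits, and at most 2 of them had an unadjusted p under 0.05.

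The tested genes whose pattern over the 4 arrays was most like that of a member were named by the distance between log2 signals centred on each gene's mean. With only 4 arrays many genes lie close by, and the list is a description. Nearest to Gdnf were Gpd1 (distance 0.0598), Tctn1 and Marchf3, and nearest to Ret were Col2a1 (0.0499), Pidd1 and Taf4b. Gfra1 was nearest to Arid5a (0.144), Syt13 and Cmtm3, and Gfra2 to Reep1 (0.0655), Anxa1 and C1qtnf3. Npnt was nearest to Lypd6 (0.0336), Sri and Tnfaip8l1, Gata3 to Ankrd50 (0.0930), Atxn7 and Garnl3, and Emx2 to Dimt1 (0.0319), Phax and Crot. Within a distance of 0.5 lay 227 genes for Gata3 and 2671 for Emx2, the fewest and the most among the members other than Tfap2b. Tfap2b had 1 gene within that distance, Gpatch3 (0.470).

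The members were then set beside 97 other genes of the pathway in 8 groups by role, of which 88 had an annotated probe set and 68 passed the filter. Among the 68, 4 were higher in KSP-positive cells and 8 lower (5.88% and 11.8%, against 1.84% and 1.65% of all genes), with a median difference of -0.21. The fractions did not overlap in 63.2% of them, against 48.9% of all genes. Without the filter, 0 of these 12 passed by limma. Over all alternatives each of the 12 kept its direction. The smallest difference was -1.51 among the 8 lower genes (Grhl2) and 0.70 among the 4 higher genes (Tcf21).

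**Figure D4:**
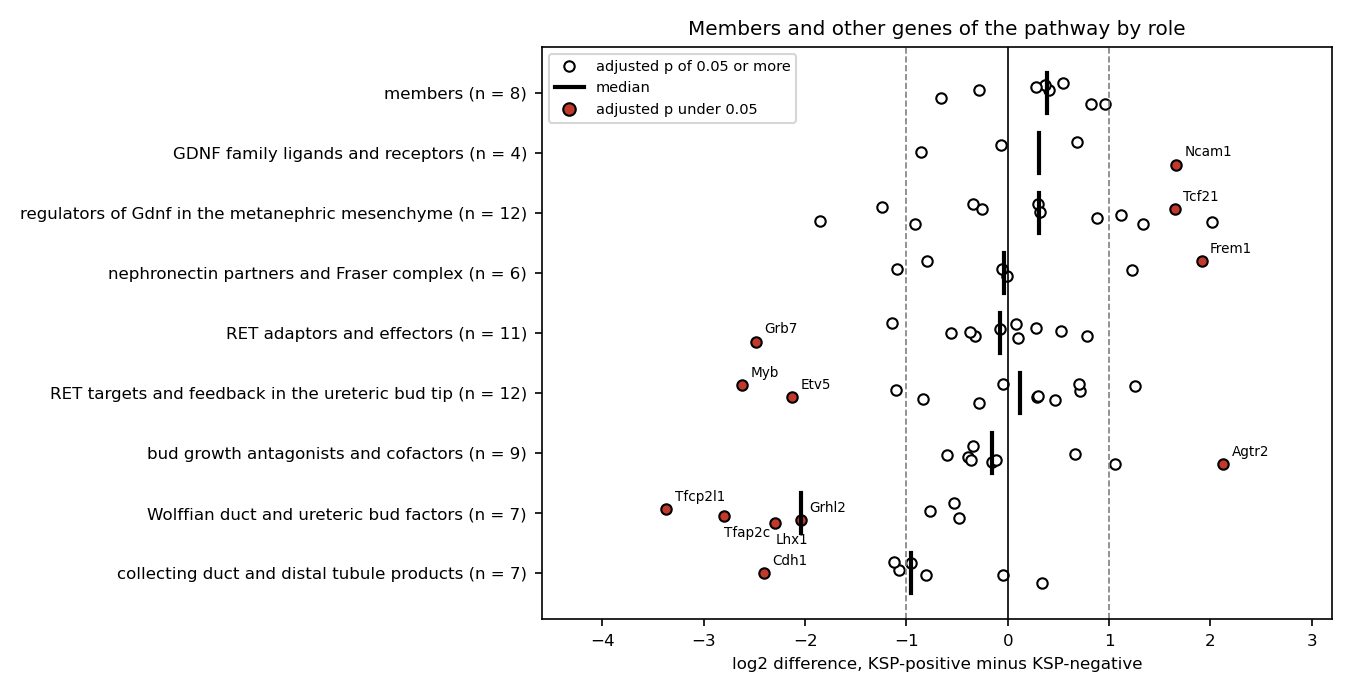
Log2 difference, KSP-positive minus KSP-negative (horizontal axis), of every tested member and of the tested pathway genes in 8 role groups, with filled points for an adjusted p under 0.05, bars at the medians and dashed lines at 2-fold. The members lie within 2-fold, and the Wolffian duct and ureteric bud factors have the lowest median, -2.04.

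Of the 4 tested genes among the other GDNF family ligands and receptors, Ncam1 rose. NCAM1, a neural cell adhesion molecule that can transmit GDNF signals together with GFRA1 in the absence of RET, read 11.72 and 11.18 in KSP-positive cells, against 10.09 and 9.48 in KSP-negative cells. The difference was 1.66 (SE 0.37, adjusted p = 0.0347 by limma), 3.17-fold. The call was lost without KSP-positive replicate 1 (adjusted p = 0.131) or KSP-negative replicate 2 (0.112), with its probe sets averaged (0.129) and without the intensity trend of the variance model (0.0743). Nrtn, the ligand of GFRA2, had a difference of -0.85 (adjusted p = 0.299), Gfra3 one of 0.69 (0.504) and Gfra4 one of -0.07 (0.966). The ligand genes Artn and Pspn were under the filter.

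Among the 12 tested regulators of Gdnf in the mesenchyme, 1 rose, Tcf21, with a median difference of 0.31 for the group. Tcf21, a transcription factor of the kidney mesenchyme and stroma, was 3.14-fold higher in KSP-positive cells (adjusted p = 0.0331). Its call was lost without KSP-positive replicate 2 (adjusted p = 0.0716) or KSP-negative replicate 2 (0.0856), without the intensity trend (0.0581) and on unscaled values (0.112), and the average of its probe sets differed by 0.70 (0.310). Sall1, a zinc finger gene of the nephron progenitors, had a difference of -1.85 (adjusted p = 0.0629), and Six4 one of -1.24 (0.131). Sall1 passed by limma on unscaled values (adjusted p = 0.0178), by robust empirical Bayes (0.0483) and under the replicate block (0.0177). It did not pass in the other fits of all 4 arrays. Over all alternatives the Sall1 difference stayed between -2.53 and -1.18. Slit2, whose product restrains Gdnf expression through ROBO2, had a difference of 1.33 (0.0846). Osr1, an early gene of the intermediate mesoderm, was under the filter, with 5.71 and 5.95 in KSP-positive cells, against 3.83 and 4.20 in KSP-negative cells.

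Of the 6 partners of nephronectin and members of the Fraser complex, which anchors it in the basement membrane, 1 rose. Frem1, a matrix protein gene of that complex, read 11.23 and 10.81 in KSP-positive cells, against 9.74 and 8.47 in KSP-negative cells, a difference of 1.91 (SE 0.44, adjusted p = 0.0404), 3.77-fold. The call was lost without KSP-negative replicate 2 (adjusted p = 0.137), after quantile normalization (0.0523) and without the intensity trend (0.0810). Itga8, which encodes the alpha8 integrin chain that binds nephronectin, read 11.16 and 10.93 in KSP-positive cells, against 9.92 and 9.73 in KSP-negative cells. Its fractions were well apart, but the difference of 1.22 had an adjusted p of 0.0737. Frem2 and Fras1 had differences of -1.09 (adjusted p = 0.136) and -0.80 (0.305), so the tested genes of the Fraser complex did not share a direction.

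Among the 11 RET adaptors and effectors, 1 fell. Grb7, which encodes an adaptor that binds the activated receptor, read 5.61 and 6.08 in KSP-positive cells, against 8.41 and 8.26 in KSP-negative cells. The difference was -2.49 (SE 0.40, adjusted p = 0.0101), 5.61-fold lower. The kinase gene Src had a difference of -1.14 (adjusted p = 0.214), Plcg1 one of -0.56 (0.446) and the adaptor gene Dok4 one of 0.78 (0.436). The median of the group was -0.07.

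Among the 12 targets and feedback genes of RET in the bud tip, 2 fell and none rose. Etv5, an ETS transcription factor gene switched on by RET, showed a 4.36-fold lower signal in KSP-positive cells than in KSP-negative cells (adjusted p = 0.0147), and lost its call with its probe sets averaged (difference -1.55, adjusted p = 0.0563). Myb, a transcription factor gene that RET induces in the mouse bud, read 4.84 and 5.24 in KSP-positive cells, against 6.84 and 8.48 in KSP-negative cells, 6.15-fold lower (adjusted p = 0.0333). Its probe set has the suffix for possible matches to other transcripts, and the call was lost without KSP-negative replicate 2 (adjusted p = 0.234), after quantile normalization (0.0521) and with its probe sets averaged (0.0501). Etv4, the partner of Etv5, was under the filter, at the floor in both KSP-positive arrays, against 4.57 and 5.28 in KSP-negative cells. Mmp14, a matrix metalloproteinase gene, had a difference of 1.26 (adjusted p = 0.0899), Dusp6, a feedback phosphatase gene, one of -1.10 (0.296) and Met one of -0.84 (0.322). The group's median was 0.12.

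Among the 9 bud growth antagonists and cofactors, 1 rose. Agtr2, which encodes the type 2 angiotensin receptor of the mesenchyme around the bud, was 4.37-fold higher in KSP-positive cells (adjusted p = 0.0324), a call lost without KSP-negative replicate 1 (0.0811). Bmp4, an inhibitor of ectopic budding, had a difference of 1.06 (adjusted p = 0.118), Fgf7 one of 0.66 (0.532) and Rara one of -0.60 (0.599).

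The Wolffian duct and ureteric bud factors were the group with the lowest median, -2.04, and 4 of its 7 tested genes fell. Tfcp2l1, a transcription factor gene of the collecting duct that pluripotent cells also use, read 5.51 and 5.86 in KSP-positive cells, against 9.25 and 8.86 in KSP-negative cells, 10.3-fold lower (adjusted p = 0.00236). Tfap2c, an AP-2 gene also active in trophoblast and germ cells, read 8.33 and 8.79 in KSP-positive cells, against 10.71 and 12.02 in KSP-negative cells, 6.98-fold lower (adjusted p = 0.00918). Grhl2, an epithelial transcription factor gene of the bud, read 5.56 and 5.52 in KSP-positive cells, against 7.07 and 8.10 in KSP-negative cells, 4.13-fold lower (adjusted p = 0.0425), and Lhx1, which the duct needs in order to extend, was 4.90-fold lower (0.0346). The Grhl2 and Lhx1 calls were lost without KSP-negative replicate 2 (adjusted p = 0.290 and 0.234), and that of Grhl2 also after quantile normalization (0.0556) and with its probe sets averaged (difference -1.51, adjusted p = 0.146). The other 3, Gata2, Wnt7b and Tfap2a, had differences of -0.77 (adjusted p = 0.316), -0.48 (0.565) and -0.53 (0.644). Pax8, Hoxb7, Wnt9b, Emx1 and Foxi1 were under the filter, with no array above 5.39.

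Of the 7 tested collecting duct and distal tubule products, Cdh1 fell and the group's median was -0.96. Cdh1, which encodes the epithelial adhesion protein E-cadherin, showed a 5.30-fold lower signal in KSP-positive cells (0.00848). The keratin genes Krt19, Krt8 and Krt18 had differences of -1.12 (adjusted p = 0.110), -0.96 (0.177) and -0.81 (0.205). Umod and Slc12a3, markers of the thick ascending limb and of the distal convoluted tubule, were at the floor on all 4 arrays, and the water channel gene Aqp2 of the collecting duct was between 4.72 and 5.23. Scnn1b, a subunit gene of the epithelial sodium channel, was under the filter, with 6.27 and 5.03 in KSP-positive cells and the floor in both KSP-negative arrays.

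**Figure D5:**
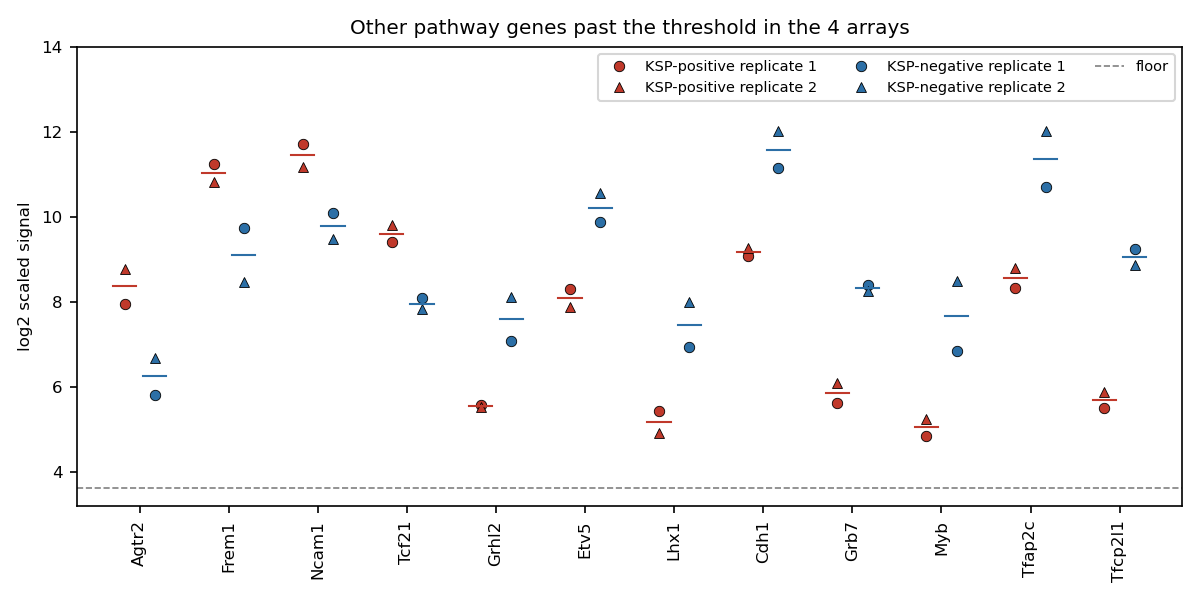
Log2 scaled signal (vertical axis) of the 12 pathway genes other than the members that had an adjusted p under 0.05, with 1 point for each KSP-positive and KSP-negative array. Ncam1, Tcf21, Frem1 and Agtr2 are higher in both KSP-positive arrays and the other 8 genes are lower.

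Marker genes of several cell types moved with the fractions beside these groups, where 1.84% of all genes tested were higher in KSP-positive cells and 1.65% lower. The marker lists were chosen with earlier results of these data known, so their counts are a description. Of 13 tested macrophage markers, 13 were higher in KSP-positive cells (median difference 3.18), and their summed scaled signal was 25726 and 12483 in KSP-positive cells, against 2195 and 1770 in KSP-negative cells. Of 12 mesenchymal markers, 5 were higher and none lower (median 1.61), with sums of 78197 and 56318 in KSP-positive cells, against 37615 and 25509 in KSP-negative cells. Of 12 pluripotency markers, 11 were lower in KSP-positive cells (median -3.48), with sums of 8191 and 9035, against 19405 and 33501 in KSP-negative cells. Of 12 epithelial markers, 7 were lower (median -2.20), with sums of 8456 and 10679 in KSP-positive cells, against 23645 and 29890 in KSP-negative cells. Itgam, C1qa, C1qc and Fcgr1 of the macrophage list and Nanog of the pluripotency list were at the floor on at least 1 array. Itgam was under the filter and was not tested. C1qa, C1qc and Fcgr1 were under 5.14 on both KSP-negative arrays, and Nanog and Utf1 on both KSP-positive arrays. These passed the filter only through the fraction where they were high. Cdh1, Krt8, Krt18 and Krt19, 4 of the 7 tested collecting duct and distal tubule genes, also stand in the epithelial list, as does Grhl2, and Tfap2c and Gata2 stand in the trophoblast list. The part of these cell types in the values of the members and of the pathway genes was not tested.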

How the data were processed

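Total RNA of sorted cells was labelled with biotin in a 2-cycle protocol and hybridised to 4 arrays, 2 per fraction. The deposited values are linear intensity signals of each probe set, made by the authors with MAS5, per the labels; further settings of the authors' GeneSpring analysis are not given in the sources used here. Of 45037 probe sets besides controls, 34945 were annotated to 1 gene, 932 to several and 9160 to none. Signals were scaled to a common 75th percentile (281), raised to a floor at the 20th percentile of all values (12.3) and taken as log2. At the floor lay 16.8% and 22.9% of probe sets on the KSP-positive arrays, and 20.9% and 19.4% on the KSP-negative arrays; the number of arrays limits the precision. The 27022 probe sets whose mean log2 signal exceeded its 40th percentile were tested, and the brightest single-gene probe set stood for each of 12849 genes. Differences were tested with limma 3.58.1 (R 4.3.3, empirical Bayes with intensity trend) and Benjamini-Hochberg adjustment over all genes or probe sets. The code was first run on simulated data whose noise was drawn from the same variance model. That run cannot show whether the model holds for these 4 arrays. The plots used matplotlib 3.10.9.

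The members, the pathway groups, the marker lists (pluripotent, macrophage, mesenchymal, epithelial, neural crest, neuron, trophoblast, germ cell, endothelium) and the tests were chosen with earlier results of these data known. All members were named with every probe set, and of the pathway genes those with an adjusted p under 0.05 and up to 3 more per group with the smallest p. Of each marker list, up to 3 genes with the highest mean signal were to be named, but many of these are not named in the text. Marker genes given by name were mostly those past the adjusted threshold, at the floor or shared with another list. Genes named outside these rules were chosen after their values were seen. Alternatives changed the scaling, floor, filter, probe set rule, variance model, test, size threshold, replicate block and each array in turn. Gene coordinates and sequences were not used here.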

Additional observations from a re-analysis of the deposited data

How the results depend on the processing

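No member passed the adjusted threshold under any of the alternatives run, and only the methods' t-test without adjustment called 1 (Gfra2, at 0.0333, on the gene level and among all probe sets). Without 1 array in turn, 0 to 2 members were more than 2-fold higher and 0 to 1 lower on the gene level, and 0 to 3 probe sets higher and 0 to 1 lower. Without the filter, 1 member gene (Calb1) and 2 probe sets (Ret and Calb1) were more than 2-fold lower. Tfap2b turned to -0.26 with the floor at the 40th percentile. Over the fits without 1 array, Npnt ran from -0.014 to 0.75, its probe set 1426560_a_at from -0.13 to 0.0065, Gata3 from -0.056 to 1.14, Emx2 from -0.58 to 0.0055, Tfap2b from -1.58 to 2.13, Gfra4 from -0.63 to 0.50 and Tfap2a from -1.27 to 0.22. The cause was not tested.

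Of all genes, 236 were higher and 212 lower. The counts were 352 lower on values as deposited, 571 and 560 with the replicate block, 666 and 570 by the methods' t-test unadjusted and 0 and 0 after its Benjamini-Hochberg adjustment, and 166 to 419 and 104 to 509 without 1 array. With no filter 0 and 0 passed by limma, although 1184 and 1091 had an unadjusted p under 0.05. More than 2-fold lower were 984 genes, 643 with the filter at the 60th percentile and 753 to 1649 without 1 array; more than 3-fold were 362 higher and 352 lower. Of the pathway genes, 4 were higher and 8 lower; the counts were 5 lower with the filter at the 60th percentile, 2 and 5 with each gene's probe sets averaged, 1 higher without the intensity trend, 1 to 5 and 5 to 12 without 1 array, and 0 and 0 without the filter or by the adjusted methods' t-test, with 13 and 14 or 6 and 8 at an unadjusted p under 0.05. More than 3-fold were 5 higher and 9 lower.

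Same-numbered arrays deviated from their fraction means with a correlation of 0.166 over genes, and no source pairs the numbers. With the replicate block the pathway counts were 9 higher and 11 lower, and Gfra2 had an adjusted p of 0.0640, the lowest of its adjusted alternatives (highest 0.537). Of the 24 member probe sets, 12 were under the filter and 11 had an array at the floor. A difference with an array at the floor depends on where the floor was set.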

Other observations

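Of 7 tested markers of enteric and peripheral neural crest, 1 rose and 2 fell in KSP-positive cells. The endothelin receptor gene Ednrb read 10.55 and 10.85 in KSP-positive cells, against 9.49 and 8.62 in KSP-negative cells (adjusted p = 0.0442 by limma). Erbb3, a neuregulin receptor gene of crest and glial cells, read 6.99 and 7.31 in KSP-positive cells, against 9.19 and 9.33 in KSP-negative cells (adjusted p = 0.0127), and Foxd3, a crest and pluripotency factor gene, fell as well (0.0313). Foxd3 was under 5.14 on both KSP-positive arrays and passed the filter only through the KSP-negative ones.

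Of 10 tested neuronal markers, 1 fell, Stmn2 (adjusted p = 0.0303 by limma), and the summed signals were 1093 and 1134 in KSP-positive cells, against 1500 and 2507 in KSP-negative cells. Of 7 trophoblast markers, 3 fell (Tfap2c, Eomes and Cdx2), with sums of 2550 and 2957 in KSP-positive cells, against 4628 and 8175 in KSP-negative cells. Only 1 of the 7 had a difference above 0, Plac1, the brightest of them. It read 10.59 and 10.65 in KSP-positive cells, against 9.87 and 9.25 in KSP-negative cells (difference 1.06, adjusted p = 0.139 by limma). Of 8 germ cell and spermatogonial markers, 3 fell (Dppa3, Zbtb16 and Prdm14), while Kit had a difference of -0.08 (adjusted p = 0.934). Of 10 endothelial markers, 0 passed the adjusted threshold by limma and 1 had an unadjusted p under 0.05 (Sox17), with sums of 1590 and 5649 in KSP-positive cells, against 3922 and 3179 in KSP-negative cells.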
